A study of Sus scrofa with 18 samples.

Results

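The 34 genes described here are those that the deposited count tables place on the mitochondrial chromosome of the pig (Sus scrofa), out of 15240 genes in all. They were taken by chromosome alone, and the rule uses no measured value. They comprise 2 ribosomal RNA (rRNA) genes, 13 protein-coding (mRNA) genes and 19 transfer RNA (tRNA) genes. Counts came from total RNA of purchased cells that the labels call kidney endothelial cells, in 18 libraries. The labels named 5 libraries GFP control (cells given a plasmid for a fluorescent protein) and 5 ST8Sia6 plasmid (cells given a plasmid for a sialyltransferase, spelled St8i6a plasmid there). They named 5 more cell-cell interaction, 2 wild type, with no plasmid named, and the remaining 1 a negative sample, KEC plus all cells. All cells came from 1 kind of purchased culture, frozen at passage 5. Per the labels' protocols the transfected cells received plasmid by lipid reagent and were used 24 hours later, and further transfected cells met blood mononuclear cells from 4 individuals in co-culture. For GFP control, ST8Sia6 plasmid and cell-cell interaction, with 5 libraries each, 4 experiments are stated, so libraries of a label may share an experiment. The plasmid behind each cell-cell interaction library and the experiment behind each library are not labelled, so the p-values below cover only the variation among these libraries, which could be technical.

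The mitochondrial genome is a small circle present in many copies per cell. It is read from promoters in its control region as long transcripts of each strand, called heavy and light, and enzymes then cut out the tRNAs that lie between most genes, which releases the rRNAs and mRNAs. The rRNAs build the mitochondrial ribosome, and the mRNAs encode subunits of the respiratory chain and of ATP synthase, whose remaining subunits are encoded in the nucleus, so each complex (except complex II, which is wholly nuclear) is built from the products of both genomes. In kidney cells, mitochondria supply much of the energy for transport.

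All 34 genes matched a gene of the same coordinates and class in the RefSeq annotation of the pig, which lists 37 mitochondrial genes, and the other 3, all tRNA genes, were not analysed here. In build susScr11 the shorter rRNA gene, ENSSSCG00000018061.3, lies at chrM:1246-2205 and the longer, ENSSSCG00000018063.3, at chrM:2274-3844. The genes used have 25 members annotated on the plus strand and 9 on the minus strand, the latter being ND6 and 8 tRNA genes. The plus-strand set is called heavy-strand here and the minus-strand set light-strand, after the usual names of the transcripts. The files give tRNA genes no names, so they are numbered 1 to 19 along the map, from tRNA 1 between the longer rRNA gene and ND1 to tRNA 19 at the end of the map. Some neighbours overlap, by 43 bases for ATP8 and ATP6, 17 for ND5 and ND6 and 7 for ND4L and ND4. How strand and multiply matching reads were treated is not given in the sources used here, so reads in these overlaps, reads from opposite strands and reads from nuclear copies of mitochondrial sequence cannot be told apart from each gene's own.

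Total counts ran from 14867035 to 33301008 per library. Among markers of the labelled cell type, 8 of 12 endothelial genes had a row. FLT1 reached 35.1 to 160 CPM (counts relative to the effective size of the library), PECAM1 stayed between 0.879 and 4.86 CPM, CLDN5, EMCN, ERG and TIE1 had medians under 1 CPM, and CDH5, KDR, TEK and VWF were not analysed here. Of 12 kidney epithelial markers 9 had a row, and KRT19, MAL and PAX8 were not analysed here. KRT8 had 576 to 1522 CPM, PAX2 102 to 187 CPM and CDH1 40.7 to 549 CPM, whereas EPCAM had a median of 1.36 CPM, CDH16 of 5.15 CPM and CLDN8 of 9.96 CPM. The defining endothelial genes were thus near 0 or not analysed here, apart from FLT1. The summed level of the 8 endothelial markers was 40.8 to 50.2 CPM in GFP control, 47.9 to 76.2 CPM in ST8Sia6 plasmid, 77.9 to 166 CPM in cell-cell interaction and 111 to 175 CPM in the other 3 libraries. FLT1 made up most of this sum, since the next highest marker, ESAM, reached at most 10.3 CPM in any library. That of the 9 epithelial markers was 2111 to 3014 CPM in GFP control and 1137 to 1894 CPM in cell-cell interaction, without overlap. The leukocyte gene PTPRC had a median of 0 CPM, and the summed level of 10 leukocyte markers was 84.4 and 116 CPM in the libraries labelled GFP control 1 and 2 against 37.1 to 64.0 CPM in the other 16. A separate list of T cell, NK cell, B cell and monocyte markers did not set GFP control 1 and 2 apart, at 15.8 and 22.4 CPM. Its sum was highest in ST8Sia6 plasmid 2 (39.3 CPM) and cell-cell interaction 5 (38.4 CPM). In the authors' deposited table, the comparisons weighed libraries otherwise than the labels do: regressing their log2 fold changes on the libraries' log2 CPM gave "GFP control vs Cell cell interaction GFP" weights of size 0.231 to 0.263 on the libraries labelled GFP control 1 to 4, cell-cell interaction 1 and 2 and ST8Sia6 plasmid 4 and 5, and at most 0.029 on the others. There ST8Sia6 plasmid 4 and 5 lay on the side of cell-cell interaction 1 and 2, opposite GFP control 1 to 4. In the authors' deposited table "St8i6a plasmid vs GFP control" put weights of size 0.189 to 0.304 on GFP control 1 to 5 and ST8Sia6 plasmid 1 to 3 and at most 0.049 on the others, with GFP control 5 on the side of ST8Sia6 plasmid 1 to 3. Wild type 1 had weights of -0.161 in "St8i6a plasmid vs Cell cell interaction st8i6a" and -0.214 in "Cell cell interaction GFP vs Cell cell interaction st8i6a". Both lay on the side of cell-cell interaction 3 to 5, whereas wild type 2 had -0.038 and 0.004. In the former, GFP control 5 (0.227) again lay on the side of ST8Sia6 plasmid 1 to 3. The labels and the deposited comparisons thus disagree on which libraries form a group, which of them is right could not be settled here, and every direction below is between libraries as labelled.

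The libraries differed most in the total. Mitochondrial genes took 1.34%, 1.97%, 2.03%, 1.22% and 1.97% of all counts in GFP control 1 to 5. They took 1.89%, 1.72% and 1.42% in ST8Sia6 plasmid 1 to 3 and 17.5% and 16.7% in ST8Sia6 plasmid 4 and 5. They took 19.6%, 13.8%, 24.3% and 25.4% in cell-cell interaction 1 to 4 and 3.32% in cell-cell interaction 5. The cell-cell interaction libraries were thus all above GFP control, but 1 of them lay far nearer to GFP control than to the other 4, and the ST8Sia6 plasmid libraries split into 3 low and 2 high ones. The 2 high ones were those that the authors' deposited weights set beside cell-cell interaction 1 and 2. The wild type libraries had 2.29% and 4.32% and KEC plus all cells 4.32%, between those extremes. The 6 libraries above 10% were also the 6 with the fewest counts, at 14867035 to 21429389 against 22600548 to 33301008 in the other 12, and the part of depth in the result was not tested. In bulk RNA a larger share can come from more mitochondrial RNA per cell or from less of the other RNA, and these cannot be told apart.

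**Figure D1:**
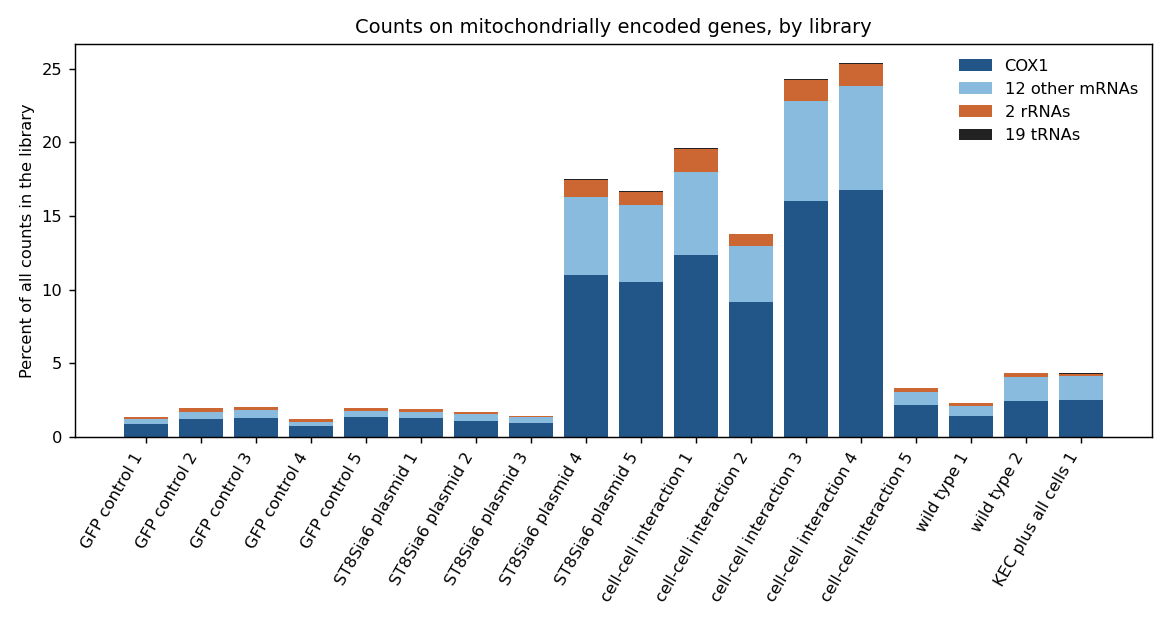
Percent of all counts in each library (vertical axis) that fell on mitochondrially encoded genes, stacked as COX1, the 12 other mRNAs, the 2 rRNAs and the 19 tRNAs. ST8Sia6 plasmid 4 and 5 and cell-cell interaction 1 to 4 stand between 13.8% and 25.4%, the other 12 libraries between 1.22% and 4.32%.

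Within the mitochondrial counts, mRNAs took 84.8% to 95.8%, rRNAs 4.08% to 14.9% and tRNAs 0.124% to 0.415% over the 18 libraries. Columns of the kind named in the labels' protocols retain RNA of tRNA size poorly, and whether rRNA was depleted is not given in the sources used here, so these shares describe what was counted rather than the make-up of the organelle. COX1, the catalytic core subunit of cytochrome oxidase (complex IV), alone held 57.1% to 69.1%. Its mean share was 65.1% ± 3.12 (SD, n = 5) in GFP control, 65.2% ± 2.60 (SD, n = 5) in ST8Sia6 plasmid and 65.4% ± 1.29 (SD, n = 5) in cell-cell interaction, so it differed by less than the spread between libraries while the total changed.

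Levels between genes were compared as CPM per kilobase of gene. On that scale COX1 stood above COX3, COX3 above COX2 and COX2 above ND1 in 18 of 18 libraries, and ND3 stood above ATP8 in 18 of 18. Averaged over the libraries, COX1 reached 35084 CPM per kilobase, 11.6 times ND1, and ATP8 was lowest at 570.1 CPM per kilobase. COX3, a further core subunit of complex IV, was the next highest mRNA in every library, with COX1 2.83 to 7.14 times above it. In the middle of the order the neighbours changed places: ND1, a membrane subunit of complex I, exceeded the longer rRNA in 9 of 18 libraries, and ATP6 exceeded ND4L in 7 of 18. The rRNAs stood higher in the order in GFP control, at ranks 4 and 5 of 15, than in KEC plus all cells, where they had ranks 10 and 13. ND6, the light-strand mRNA, was the lowest of the 15 rRNA and mRNA genes by mean in wild type and in KEC plus all cells. In wild type 1, however, ATP8 (57.8 CPM per kilobase) lay below ND6 (91.0 CPM per kilobase).

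**Figure D2:**
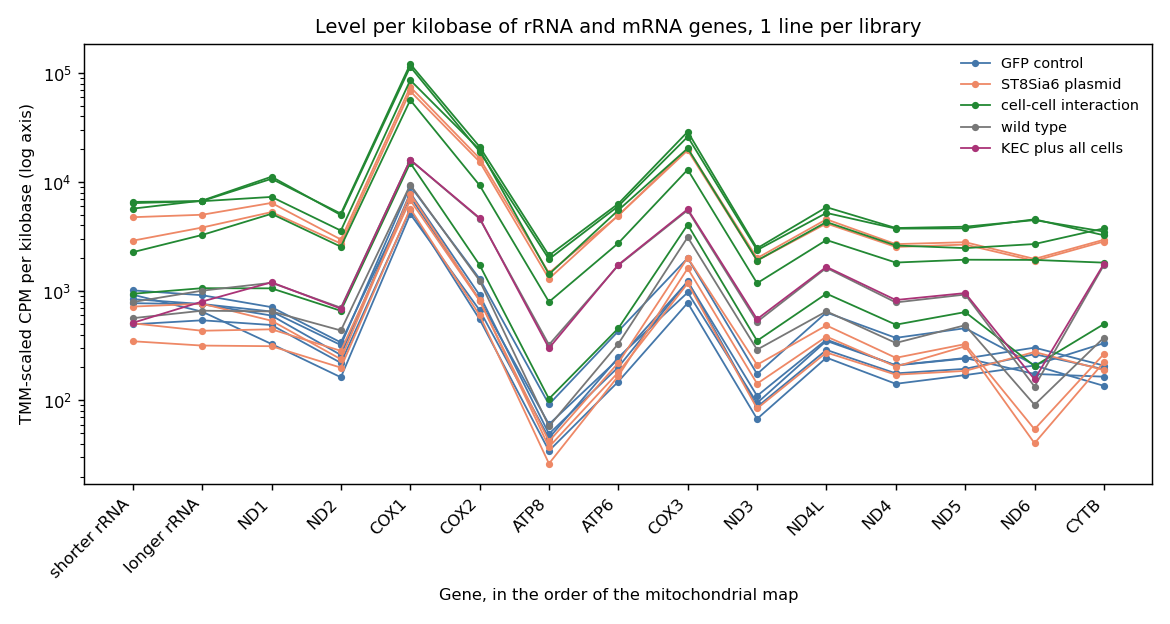
TMM-scaled CPM per kilobase (log axis) of the 2 rRNA and 13 mRNA genes in map order, with 1 line for each of the 18 libraries, coloured by label. The lines run nearly in parallel with a peak at COX1 and a low at ATP8, and ND6 lies above its neighbours ND5 and CYTB in some libraries and below them in others.

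The rRNAs form the core of the mitochondrial ribosome. The shorter rRNA had 477, 977, 812, 891 and 746 CPM in GFP control 1 to 5 and 694, 487, 334, 4574 and 2788 CPM in ST8Sia6 plasmid 1 to 5. It had 6318, 2187, 5481, 6152 and 909 CPM in cell-cell interaction 1 to 5, 543 and 764 CPM in wild type and 492 CPM in KEC plus all cells. Cell-cell interaction 5 fell inside the GFP control range, and the other 4 lay above it. The longer rRNA had 850, 1443, 1199, 1020 and 1194 CPM in GFP control and 1206, 682, 499, 7883 and 6019 CPM in ST8Sia6 plasmid. It had 10494, 5147, 10624, 10526 and 1674 CPM in cell-cell interaction, 1041 and 1589 CPM in wild type and 1263 CPM in KEC plus all cells. For this gene every cell-cell interaction library lay above every GFP control library.

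Cell-cell interaction against GFP control asked how transfected cells changed after contact with leukocytes, as far as the labels tell. Of the 34 genes, 30 had enough counts to be tested, and edgeR's quasi-likelihood test (adjusted p under 0.05 over all genes) called all 30 of these higher and none lower. Over all 13951 genes tested, 20.8% were called higher and 18.7% lower, and the median log2 fold change was -0.02. The median over the 30 was 3.66. The 2 rRNAs rose by 2.46 ± 0.48 (SE) and 2.78 ± 0.45 (SE) on the log2 scale (adjusted p = 0.00314 and 0.00138). The 13 mRNAs rose by 3.31 (ND5) to 4.55 (ATP8) and the 15 tested tRNAs by 2.89 (tRNA 18) to 4.44 (tRNA 2), so each tested mRNA and tRNA had a larger log2 fold change than either rRNA. Cell-cell interaction 5, the library of low mitochondrial share, gave a median of 1.27 when set alone against GFP control, where the lone library is assumed to vary like GFP control. CPM did not overlap between the labels for 26 of the 34 members, all higher, against 11.7% of all genes tested that were higher without overlap.

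**Figure D3:**
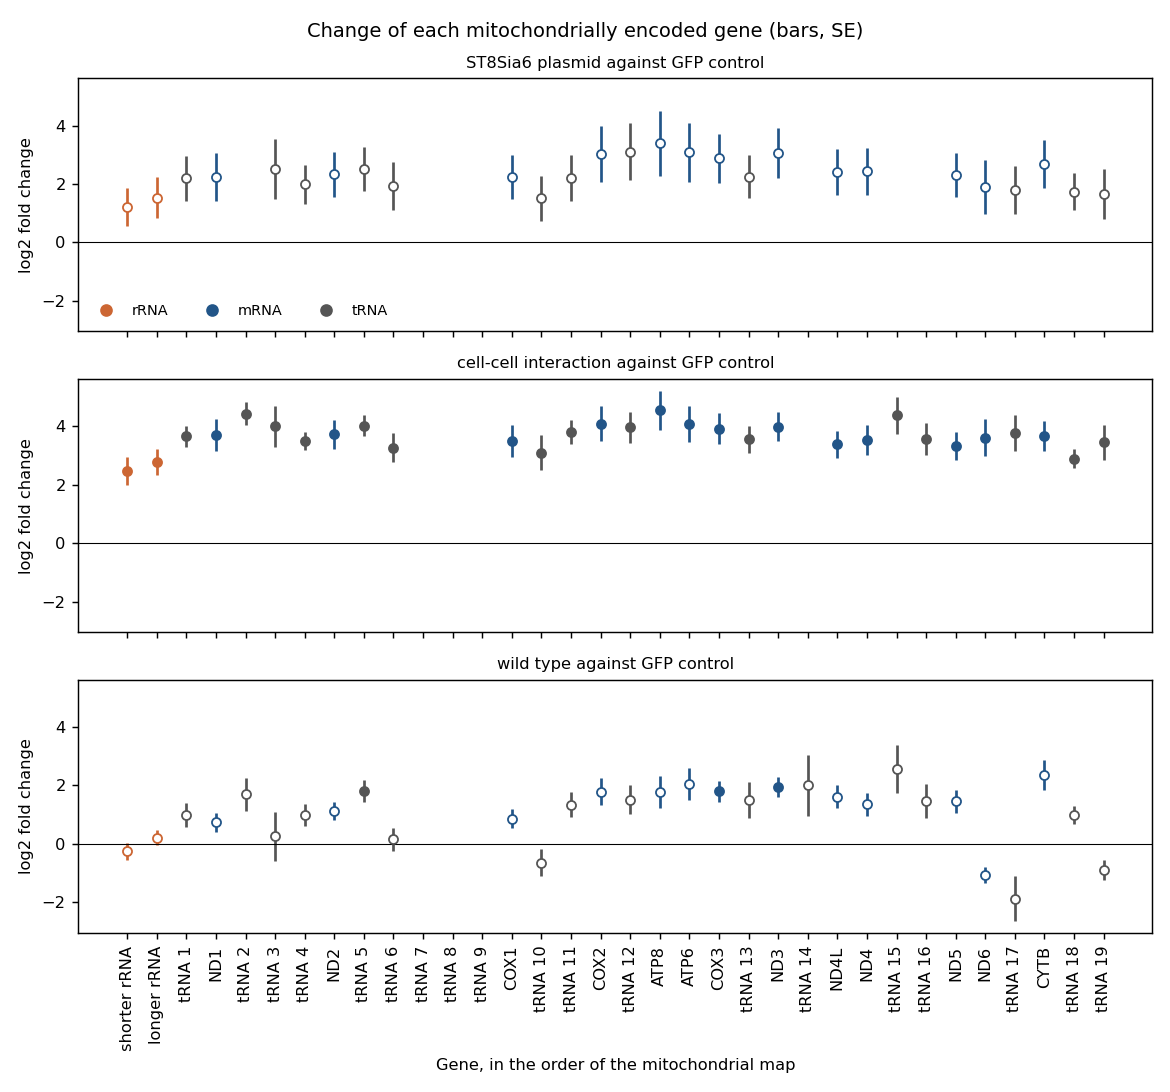
Log2 fold change (vertical axis) with its standard error for each tested member in map order, for ST8Sia6 plasmid, cell-cell interaction and wild type, each against GFP control; filled points were called at an adjusted p under 0.05. In cell-cell interaction all 30 points are filled and lie between 2.46 and 4.55, whereas 0 are filled for ST8Sia6 plasmid and 3 for wild type.

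The mRNAs of complex IV showed the level of the change. COX1 had 8617, 11311, 14224, 7875 and 12289 CPM in GFP control and 12037, 10518, 8832, 115058 and 105149 CPM in ST8Sia6 plasmid. It had 132696, 87192, 176052, 186711 and 23145 CPM in cell-cell interaction, 14592 and 24678 CPM in wild type and 24698 CPM in KEC plus all cells. All cell-cell interaction libraries exceeded the highest GFP control library. The mean was 121159 ± 67461 CPM (SD, n = 5) against 10863 ± 2622 CPM (SD, n = 5), a log2 fold change of 3.51 ± 0.55 (SE; edgeR adjusted p = 0.00104). COX2, which carries the copper site that takes electrons from cytochrome c, rose by 4.09 and COX3 by 3.92.

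ATP8 and ATP6 encode membrane subunits of ATP synthase (complex V) and are translated from 1 shared message. ATP8 had 7.03, 12.3, 18.7, 9.20 and 10.0 CPM in GFP control and 7.62, 8.58, 5.36, 299.9 and 265.5 CPM in ST8Sia6 plasmid. It had 291.4, 162.8, 401.2, 433.7 and 21.1 CPM in cell-cell interaction, 11.8 and 65.9 CPM in wild type and 61.3 CPM in KEC plus all cells. Library 5 of cell-cell interaction was just above the GFP control range and the other 4 were far above it. ATP8 rose by 4.55 ± 0.67 (SE; edgeR adjusted p = 0.00088) and ATP6 by 4.09 ± 0.62 (SE).

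Complex I, the entry point of NADH electrons, has 7 of its subunits in the mitochondrial genome. In cell-cell interaction against GFP control ND1 rose by 3.70, ND2 by 3.73, ND3 by 3.99, ND4L by 3.39, ND4 by 3.52 and ND5 by 3.31. CYTB, the cytochrome b of complex III, rose by 3.67. ND6 had 110.1, 160.5, 111, 92.2 and 139.7 CPM in GFP control and 147, 28.7, 21.4, 1044 and 1002 CPM in ST8Sia6 plasmid. It had 1428, 1022, 2407, 2366 and 109 CPM in cell-cell interaction, 48.0 and 70.6 CPM in wild type and 82.2 CPM in KEC plus all cells. Cell-cell interaction 5 lay inside the GFP control range for ND6, and ST8Sia6 plasmid 2 and 3 and both wild type libraries lay below it. ND6 rose by 3.61 ± 0.63 (SE; edgeR adjusted p = 0.00191) in cell-cell interaction.

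tRNAs bring amino acids to the mitochondrial ribosome and mark the cutting sites of the long transcripts. Their counts were low: 8 of the 19 had a mean of at least 100 counts per library. tRNA 1 (ENSSSCG00000018064.1, chrM:3845-3919, heavy-strand) had 9.15, 14.2, 10.8, 5.96 and 13.0 CPM in GFP control and 10.4, 10.4, 7.95, 110 and 100.5 CPM in ST8Sia6 plasmid. It had 145, 122, 164, 177 and 48.3 CPM in cell-cell interaction, 30.7 and 11.7 CPM in wild type and 13.1 CPM in KEC plus all cells. All cell-cell interaction libraries lay above GFP control, with library 5 the lowest of its label. tRNA 19 (ENSSSCG00000018096.3, chrM:16550-16613, light-strand) had 11.4, 27.1, 16.5, 12.7 and 17.4 CPM in GFP control and 16.3, 5.20, 3.91, 128 and 111 CPM in ST8Sia6 plasmid. It had 199.7, 158, 289, 246 and 17.0 CPM in cell-cell interaction, 9.12 and 9.28 CPM in wild type and 9.12 CPM in KEC plus all cells. For tRNA 19, unlike tRNA 1, cell-cell interaction 5 lay inside the GFP control range and both wild type libraries lay below it. In cell-cell interaction tRNA 1 rose by 3.66 ± 0.36 (SE; edgeR adjusted p = 0.000128) and tRNA 19 by 3.45 ± 0.59 (SE; edgeR adjusted p = 0.00171).

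ST8Sia6 plasmid against GFP control set the 2 plasmids against each other, by label. None of the 27 tested members passed the edgeR test, and neither did any other gene, 0% of 13840. All 27 had positive log2 fold changes, with a median of 2.26, and 21 of them had an unadjusted p under 0.05, as did 1367 of all genes (9.88%). DESeq2 called 12 genes and none of the 34. The positive median came with the split given above: with ST8Sia6 plasmid 4 and 5, the libraries of high mitochondrial share, left out, it was -0.10, a description and not a test. The authors' deposited comparison of these names gave those 2 libraries almost no weight and set GFP control 5 on the plasmid side, and whether the labels or that grouping is right was not tested. In cell-cell interaction against ST8Sia6 plasmid 0 of 32 tested members passed (0.159% of 13849 genes did), with 3 members and 4510 genes (32.6%) at an unadjusted p under 0.05 and a median of 1.35 over the members. DESeq2 called 1 member there.

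The authors' deposited table gave 0 of 34 members at an FDR under 0.05 for "St8i6a plasmid vs GFP control" (1.37% of all genes), with a median log2 fold change of -0.14. For "GFP control vs Cell cell interaction GFP" the authors' deposited table gave all 34 as lower in the first-named label (49.5% of all genes passed), from -4.43 to -2.33. For "St8i6a plasmid vs Cell cell interaction st8i6a" the authors' deposited table gave 33 of 34 as lower (25.2% of all genes passed), with a median of -3.36. For "Cell cell interaction GFP vs Cell cell interaction st8i6a" the authors' deposited table gave 0 of 34 (4.74% of all genes passed), with a median of 0.27. These comparisons share libraries with each other and, as given above, weigh libraries of several labels. Wild type 1 carried weight in both comparisons that name Cell cell interaction st8i6a.

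Wild type against GFP control set cells for which no plasmid is named against cells given the GFP plasmid, by label, with 2 libraries on the wild type side. As given above, the authors' deposited weights set wild type 1, but not wild type 2, beside cell-cell interaction 3 to 5. Of 31 tested members, 3 were called higher and 0 lower, where 1.97% of 14496 genes were called higher and 1.19% lower. COX3 had 612, 959, 1577, 763 and 968 CPM in GFP control and 2448 and 4326 CPM in wild type. Both wild type libraries exceeded every GFP control library, and COX3 rose by 1.80 ± 0.36 (SE; edgeR adjusted p = 0.0388). ND3 rose by 1.95 ± 0.34 (SE) and tRNA 5 by 1.81 ± 0.36 (SE). CYTB missed the threshold, with a log2 fold change of 2.36 ± 0.51 (SE; edgeR adjusted p = 0.0501), as did ND6, with -1.05 ± 0.27 (SE; edgeR adjusted p = 0.0849). The 3 calls rested on few libraries. Leaving out GFP control 1, 2, 4 or 5 or wild type 2 gave 0 calls, without GFP control 3 it was 5 and without wild type 1 it was 7; with 1 wild type library left, that library is assumed to vary like GFP control. DESeq2 called 13 higher and 1, ND6, lower.

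Shares within the mitochondrial counts set each gene against the mitochondrial total of its own library. The rRNAs together held 10.5%, 13.6%, 9.09%, 14.9% and 10.8% of mitochondrial counts in GFP control. They held 7.99%, 5.57%, 6.02%, 5.89% and 7.33% in cell-cell interaction, all below GFP control. In ST8Sia6 plasmid they held 10.9%, 7.20%, 6.26%, 6.79% and 5.29%, where library 1 overlapped GFP control and the other 4 did not, and in wild type 6.88% and 5.44%. The low shares were thus found at low totals (ST8Sia6 plasmid 2 and 3) as well as at high ones. The mean share of the shorter rRNA in cell-cell interaction was 0.478 times that in GFP control, the smallest ratio among the 23 members with a mean of at least 100 counts, and that of ATP8 was 1.86 times, the largest. Between cell-cell interaction and GFP control 5 of 34 shares did not overlap: both rRNAs were lower, and COX3, ND3 and tRNA 2 were higher. tRNA 2 had only 3 to 9 counts in the GFP control libraries. In CPM, a measure unlike these shares, 11.7% of all genes tested were higher and 12.9% lower without overlap between these labels. The shares in this comparison are thus given as values only. COX3 held 8.01% ± 0.609 (SD, n = 5) against 5.74% ± 0.869 (SD, n = 5). Between ST8Sia6 plasmid and GFP control 0 of 34 did not overlap. Between wild type and GFP control COX3, ND3, ND5 and CYTB were higher without overlap, and both rRNAs, ND6 and tRNAs 10 and 19 lower. tRNA 15 was also higher and tRNAs 9 and 17 lower, but each had a library with 1 or 0 counts, too few to resolve. With only 2 wild type libraries such non-overlap is common. In CPM, 12.9% of 14496 genes were higher and 12.7% lower without overlap between wild type and GFP control, so these shares are given as values only.

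**Figure D4:**
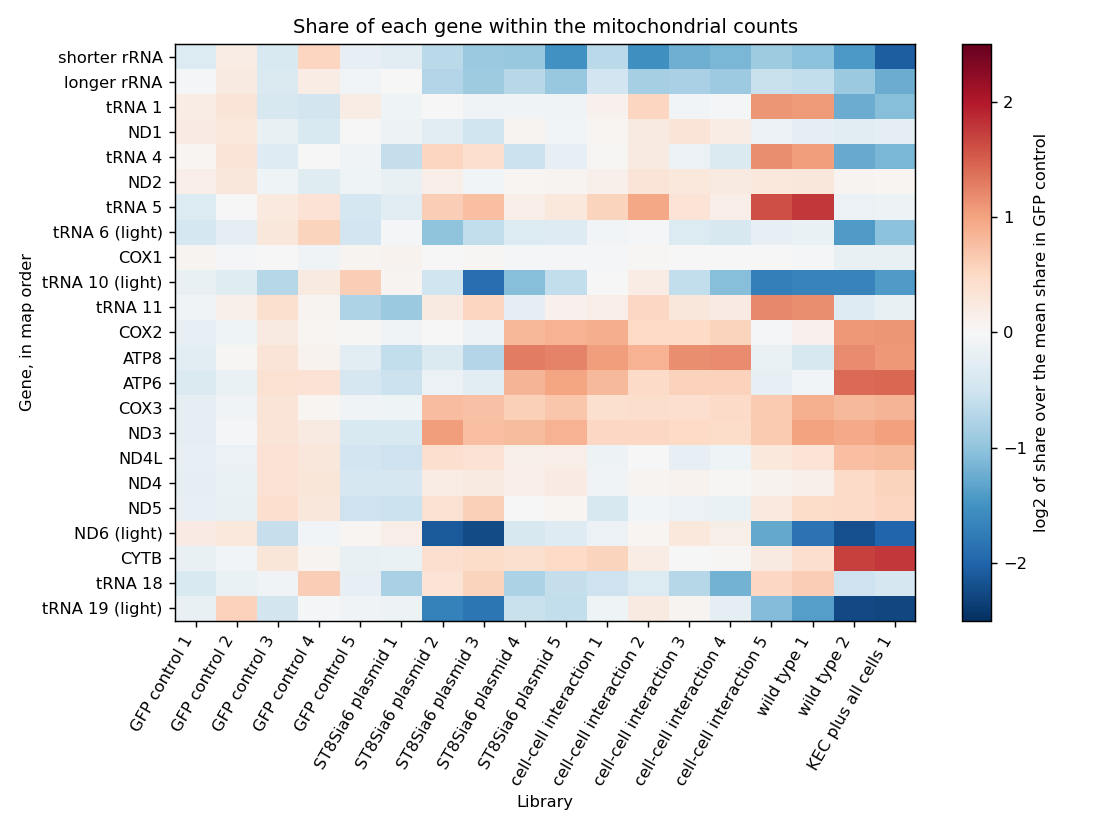
Share of each of 23 members (rows, map order; light marks light-strand genes) within the mitochondrial counts of each library (columns), as log2 of the share over its mean in GFP control, blue for lower and red for higher. Both rRNAs are blue in KEC plus all cells, wild type and cell-cell interaction, and ND6 and tRNA 19 are bluest in KEC plus all cells, wild type, ST8Sia6 plasmid 2 and 3 and cell-cell interaction 5.

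Light-strand genes divided the libraries otherwise. They held 0.618% to 1.09% of mitochondrial counts in GFP control, 0.976% in ST8Sia6 plasmid 1, 0.666% and 0.701% in ST8Sia6 plasmid 4 and 5 and 0.818% to 1.04% in cell-cell interaction 1 to 4. They held 0.233% and 0.211% in ST8Sia6 plasmid 2 and 3, 0.385% in cell-cell interaction 5, 0.274% and 0.198% in wild type and 0.230% in KEC plus all cells. The count of ND6 over that of its heavy-strand neighbour ND5 showed the same, at 0.0375 to 0.0929 in those 6 libraries and 0.133 to 0.432 in the other 12. Light-strand tRNAs made up 16.0% to 27.9% of all tRNA counts in the same 6 libraries and 40.3% to 53.0% in the other 12. The low light-strand share was found in 1 of 1 KEC plus all cells, 2 of 2 wild type, 2 of 5 ST8Sia6 plasmid, 1 of 5 cell-cell interaction and 0 of 5 GFP control libraries. Those 6 libraries had mitochondrial totals of 1.42% to 4.32%, a range that GFP control libraries without the low share also fell in, and none of the 6 libraries above 10% had it. The summed endothelial markers, mostly FLT1, were 111 to 175 CPM in KEC plus all cells, wild type and cell-cell interaction 5 and 63.4 and 47.9 CPM in ST8Sia6 plasmid 2 and 3. They were 40.8 to 50.2 CPM in GFP control and 70.6 to 89.9 CPM in the 6 libraries above 10%, and their part in the light-strand share or in the total was not tested.

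Ratios of 2 genes within a library were compared by exact permutation tests (two-sided, over every regrouping of 5 against 5 libraries, smallest possible p 0.00794) for 4 pairs in 3 comparisons, 12 tests in all. None passed after Benjamini-Hochberg adjustment over the 12. In GFP control the longer over the shorter rRNA was 1.78, 1.48, 1.48, 1.14 and 1.60, and it was 1.66, 2.35, 1.94, 1.71 and 1.84 in cell-cell interaction. The ranges overlapped, and the mean log2 ratio was 0.35 higher (exact permutation p = 0.0317, adjusted p = 0.229). In GFP control ATP8 over ATP6 was 0.0695, 0.0755, 0.0639, 0.0546 and 0.0732, and it was 0.0774, 0.0867, 0.0979, 0.10 and 0.0676 in cell-cell interaction. Library 5 again lay inside the GFP control range, and the mean log2 ratio was 0.35 higher (exact permutation p = 0.0476, adjusted p = 0.229). CYTB over ND1, the far end of the heavy strand over its near end, was 1.74 in wild type 2 and 1.76 in KEC plus all cells and at most 0.853 in the other 16 libraries.

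When each library's shares of the 23 members were compared with those of every other library, 7 pairs were each other's nearest, at a root mean square log2 distance of 0.151 to 0.378. They were GFP control 1 with 2, GFP control 3 with 4, GFP control 5 with ST8Sia6 plasmid 1, ST8Sia6 plasmid 4 with 5, cell-cell interaction 3 with 4, wild type 1 with cell-cell interaction 5, and KEC plus all cells with wild type 2. Of the 7 pairs, 4 joined libraries of 1 label and 3 joined different labels.

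The nuclear subunits of complexes I to V mostly moved opposite to the mitochondrial genes in cell-cell interaction against GFP control. Among these, complex II has no mitochondrially encoded subunit. Of 59 tested nuclear subunits of complexes I to V, 45 were called lower and 0 higher, beside 18.7% and 20.8% of all genes, and their median log2 fold change was -0.52. By complex, the edgeR test called lower 20 of 29 subunits of complex I, 4 of 4 of complex II, 6 of 7 of complex III, 9 of 9 of complex IV and 6 of 10 of complex V. COX8A, a small subunit of complex IV, fell from 78.3 ± 8.03 CPM (SD, n = 5) to 39.6 ± 6.50 CPM (SD, n = 5), a log2 fold change of -0.95 ± 0.13 (SE; edgeR adjusted p = 0.000579). SDHB, the iron-sulfur subunit of complex II, fell from 63.9 ± 4.91 to 40.6 ± 2.90 CPM (SD, n = 5), and ATP5F1A, the alpha subunit of ATP synthase, from 392.7 ± 44.1 to 225.7 ± 22.1 CPM (SD, n = 5). In no case of these 3 did the labels' ranges overlap. Between the same labels the summed epithelial markers were lower (1137 to 1894 against 2111 to 3014 CPM) and the summed endothelial markers, mostly FLT1, higher (77.9 to 166 against 40.8 to 50.2 CPM), without overlap, and their part in the results of this comparison was not tested.

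The summed level of the nuclear subunits was 2997 to 3478 CPM in GFP control, 3002 to 3544 CPM in ST8Sia6 plasmid 1 to 3, 2699 and 2348 CPM in ST8Sia6 plasmid 4 and 5 and 1882 to 2329 CPM in cell-cell interaction. Cell-cell interaction 5, with 3.32% mitochondrial counts, had 2329 CPM and so lay with the other 4 of its label rather than with GFP control. Wild type had 2767 and 2442 CPM and KEC plus all cells 2420 CPM. The level was thus low in libraries of low as well as of high mitochondrial share. In the other 3 comparisons the test called 0 of the 59.

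**Figure D5:**
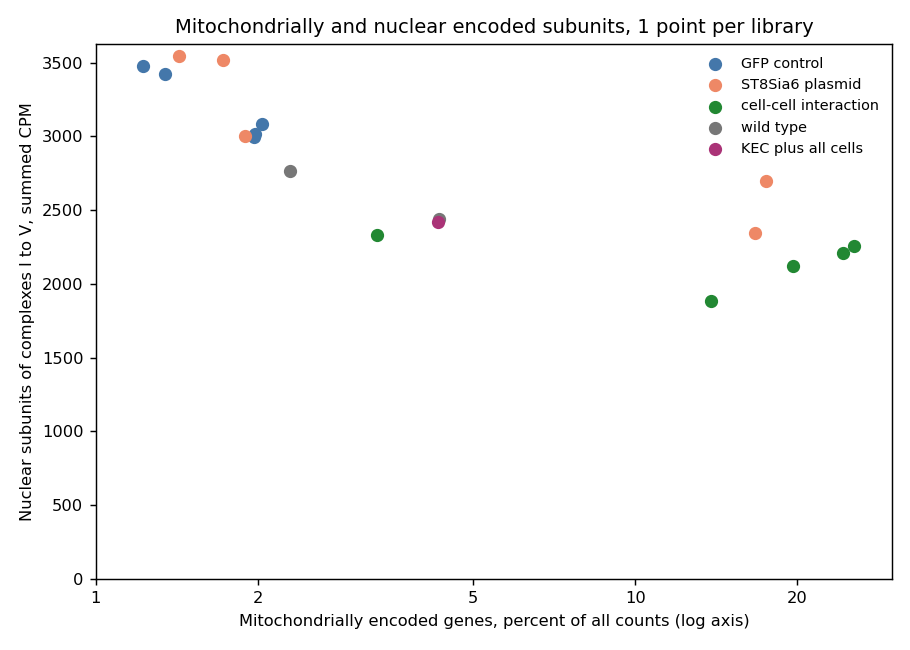
Summed CPM of 59 nuclear subunits of complexes I to V (vertical axis) against the percent of all counts on mitochondrially encoded genes (log axis), 1 point per library, coloured by label. Cell-cell interaction lies at 1882 to 2329 CPM both at 3.32% and at 13.8% to 25.4%, and GFP control at 2997 to 3478 CPM.

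Genes that act on mitochondrial transcripts or DNA were called about as often as, or less often than, all genes (20.8% higher and 18.7% lower) in the same comparison, so their counts are given as values only. Of 9 tested transcription genes 2 were called higher: POLRMT, the mitochondrial RNA polymerase, with 126 ± 22.7 against 78.1 ± 8.03 CPM (SD, n = 5; log2 fold change 0.72 ± 0.14 SE), and MTERF3, a negative regulator of mitochondrial transcription in mice, at 0.38 ± 0.12 (SE). Of 23 RNA processing and decay genes 2 were called higher and 4 lower, among them ELAC2, which cuts tRNA 3' ends (0.71 ± 0.17 SE), HSD17B10, a subunit of the enzyme that cuts 5' ends (-0.62 ± 0.15 SE), and PTCD2, a factor for processing the CYTB transcript in mice (-1.04 ± 0.11 SE). Of 12 replication genes POLG, the mitochondrial DNA polymerase, was called higher (0.64 ± 0.10 SE) and RRM2B, a ribonucleotide reductase subunit, lower (-1.24 ± 0.18 SE).

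Among 10 regulators of mitochondrial biogenesis, PPARGC1A, a coactivator that drives nuclear genes of mitochondria, fell from 23.4 ± 4.52 to 3.19 ± 2.42 CPM (SD, n = 5), a log2 fold change of -2.85 ± 0.42 (SE; edgeR adjusted p = 0.000808). Its relatives PPARGC1B (1.46 ± 0.28 SE) and PPRC1 (0.73 ± 0.18 SE) rose. Beside the same background of 20.8% higher and 18.7% lower, the test called 3 of 25 small mitochondrial ribosome proteins higher and 5 lower, 2 of 18 mitochondrial tRNA synthetases higher and 2 lower, and 0 of 12 mitophagy genes higher and 6 lower. Over all 12 lists 12 of 168 tested genes were called higher (7.14%) and 64 lower (38.1%). Of these 64, 45 were the subunits of complexes I to V given above. In wild type against GFP control the test called 0 of 169 higher and 2 (1.18%) lower, near the 1.97% and 1.19% of all genes.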

How the data were processed

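Total RNA was sequenced from 18 libraries, whose groups are the treatment labels; replicate numbers follow sample order and pair nothing. Per the submitters' processing notes the genome build was susScr11 and the tools included edgeR 3.40.2, Subread 2.0.3 (featureCounts), STAR 2.7.10a and FastQC 0.11.5; nothing more about their settings is given in the sources used here. The authors deposited raw whole-number counts, identical in their 2 tables. The log2 values deposited by the authors are log2 CPM and log2 fold changes of their own edgeR comparisons, and the p-value and FDR columns come from the same comparisons. No sample column was left without a sample. A score column deposited by the authors, a signed fold change, and the other column, gene length, were not tested; length as given by the coordinates was used for CPM per kilobase.

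Each comparison used the libraries of its 2 labels only: filterByExpr, TMM and edgeR's quasi-likelihood test (edgeR 4.0.16, R 4.3.3, robust), two-sided, Benjamini-Hochberg over all genes tested, called at an adjusted p under 0.05. The test was tested on simulated data for ST8Sia6 plasmid against GFP control, with the same spread for all genes. That simulation held no split within a label, so it does not show how the test behaves for members split like those of ST8Sia6 plasmid. Printed CPM are TMM-scaled over all 18 libraries. Standard errors of log2 fold changes derive from the F statistic. Shares, orders and distances are descriptions with no test. Alternatives were RLE scaling, scaling by nuclear genes, no filter, DESeq2 1.42.0, all labels in 1 fit, each library left out, and the named sets of libraries left out. Printed in full were the 2 rRNA genes, the mRNAs with the highest and lowest mean per kilobase, ND6, the 2 tRNAs with the highest mean count, and the members with the largest and smallest ratio of mean share; of the nuclear lists, up to 3 members with the lowest p and a mean of at least 1 CPM. COX3 in wild type was chosen for full values after its values were seen. The members, the 12 nuclear lists and the 4 marker lists were chosen with earlier results of these data known. No sequence is printed, and 1 marker gene is not reported here.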

Additional observations from a re-analysis of the deposited data

Results flagged for a closer look

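Among 48 groups of 5 libraries checked for a library far from the rest, 2 held one, and chance flags about 1 group in 20. COX1 held 63.1% of mitochondrial counts in cell-cell interaction 1, below 65.7% to 66.2% in the other 4 libraries of the label. The count of ND6 over that of ND5 was 0.0929 in cell-cell interaction 5, below 0.289 to 0.351 in the other 4.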

How the results depend on the processing

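No paired analysis was possible because the labels give no replicate numbers and name no shared experiment or donor. The libraries left out as a set were those of high mitochondrial share, so the next values restate the split and test nothing. Without ST8Sia6 plasmid 4 and 5, the log2 fold changes against GFP control turned negative for the shorter rRNA (-0.61), longer rRNA (-0.50), COX1 (-0.036), ATP8 (-0.65), ND6 (-0.89), tRNA 19 (-0.99) and tRNA 1 (-0.14), none called in either fit, and 33 members passed in cell-cell interaction against ST8Sia6 plasmid. Without cell-cell interaction 1 to 4, which leaves 1 library, assumed to vary like GFP control, 2 members passed against GFP control, with ND6 at -0.22 and tRNA 19 at -0.046.

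DESeq2 called 12 genes in ST8Sia6 plasmid against GFP control. In cell-cell interaction against ST8Sia6 plasmid it called 2777 genes, 1 member and 59 genes of the nuclear lists, where the test itself called 22, 0 and 0; all labels in 1 fit called 1430 genes and 53 of the lists, and scaling by nuclear genes 38 genes. In wild type against GFP control DESeq2 called 1427 genes, 14 members and 10 of the lists, and all labels in 1 fit called 0 members; the main counts were 458, 3 and 2. The causes were not tested.

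Leaving out 1 library at a time gave 0 to 1 genes in ST8Sia6 plasmid against GFP control. In cell-cell interaction against ST8Sia6 plasmid it gave 0 to 3308 genes, 0 to 1 members and 0 to 71 of the lists, with the highest counts without cell-cell interaction 5 (3308 genes) or ST8Sia6 plasmid 5 (2806). In wild type against GFP control it gave 65 to 407 genes, 0 to 7 members and 1 to 2 of the lists. With 1 wild type library left, it is assumed to vary like GFP control. The longer rRNA there ran from -0.15 to 0.49 (-0.15 without wild type 2). The difference in log2 ratio ran from -0.15 to 0.077 for ATP8 over ATP6 in ST8Sia6 plasmid against GFP control, from -0.046 to 0.18 for CYTB over ND1 and from -0.36 to 0.26 for ND6 over ND5 in cell-cell interaction against GFP control. In that comparison RLE, nuclear-gene scaling, no filter, DESeq2, all labels in 1 fit and each library left out kept all tested members called higher. Members under 3 counts in a library were not resolvable at this depth.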
